A study of Mus musculus with 82 samples.

Results

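The Zbtb genes encode transcription factors that carry a BTB domain at the amino end and zinc fingers at the carboxyl end. They were identified as the probe sets whose single annotated symbol was Zbtb followed by a number and an optional letter. This gave 86 probe sets for 39 genes, out of 45037 probe sets and 18193 genes on Affymetrix mouse whole-genome arrays. C57BL/6 MEFs (fibroblasts grown from mouse embryos) and primary hepatocytes received vehicle (DMSO), 991 or AICAR for 4 h, to separate effects of these activators of AMP-activated protein kinase (AMPK) that need the kinase from those that do not. In each cell type the cells were control (WT) or AMPK α1-/- α2-/- (dKO), which lack both catalytic subunits, giving 6 groups per cell type and 12 in all. MEFs received 10 µM 991 or 2 mM AICAR, and hepatocytes received 3 µM 991 or 300 µM AICAR. The titles of the MEF vehicle arrays read as no treatment, while their other labels read as vehicle.

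The 23 MEF arrays comprised 3 of WT cells with 991 and 4 of each other group. The labels call all of them technical replicates, and a p-value in MEFs therefore reflects technical spread only, not that between lines or embryos. For hepatocytes, 59 arrays covered 2 preparations of each genotype. Arrays of a preparation and treatment were averaged, which leaves n = 2 in each hepatocyte group. All hepatocyte groups were kept in dexamethasone. Levels are log2 intensities, changes are log2 differences ± standard error (SE), and each gene is represented by its brightest probe set in the cell type. A gene was called at an adjusted p under 0.05 in limma over all 18193 genes, and the number of arrays limits the precision.

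The zinc fingers of these proteins bind DNA, and the BTB domain pairs the molecules and recruits corepressors such as the NCoR, SMRT and BCoR complexes, so that many members act mainly as repressors. Members govern lineage choices in blood and lymphoid cells, and some bind methylated DNA. In liver, Zbtb20 is known for silencing the fetal gene Afp after birth. AICAR is taken up and phosphorylated to ZMP, a mimic of AMP, and can also act on other AMP-sensitive enzymes, whereas 991 binds AMPK directly.

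The promoter sequences of 5 members are shown here, chosen by their AICAR responses in MEFs among members with a matched RefSeq window. Zbtb34 and Zbtb7a had the largest AICAR rises in WT MEFs, and Zbtb3 and Zbtb4 the largest falls. Zbtb24, called in opposite directions in WT and dKO, had the largest difference in AICAR response between the genotypes. Each run is the 250 bases before the RefSeq start site on GRCm38.p6, written 5′ to 3′ on the gene's strand. Capitals mark GC boxes (GGGCGG) and CCAAT boxes (CCAAT), each read on both strands.
Zbtb34 (chr2:33431325-33431574, minus strand): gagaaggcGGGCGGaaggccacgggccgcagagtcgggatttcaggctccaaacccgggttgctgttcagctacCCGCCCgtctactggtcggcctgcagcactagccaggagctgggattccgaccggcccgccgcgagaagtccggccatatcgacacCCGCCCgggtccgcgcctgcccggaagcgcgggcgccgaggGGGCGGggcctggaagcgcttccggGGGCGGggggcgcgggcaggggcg
Zbtb7a (chr10:81136021-81136270, plus strand): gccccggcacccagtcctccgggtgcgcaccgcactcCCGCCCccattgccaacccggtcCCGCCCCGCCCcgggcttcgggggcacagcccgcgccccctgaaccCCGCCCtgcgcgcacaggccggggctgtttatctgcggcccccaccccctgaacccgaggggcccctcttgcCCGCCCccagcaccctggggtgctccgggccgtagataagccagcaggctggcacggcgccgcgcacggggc
Zbtb3 (chr19:8802263-8802512, plus strand): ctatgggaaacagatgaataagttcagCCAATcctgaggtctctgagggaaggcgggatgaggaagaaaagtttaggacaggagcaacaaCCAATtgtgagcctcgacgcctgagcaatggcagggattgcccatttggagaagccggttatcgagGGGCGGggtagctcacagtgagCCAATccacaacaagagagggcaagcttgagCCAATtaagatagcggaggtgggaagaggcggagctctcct
Zbtb4 (chr11:69765662-69765911, plus strand): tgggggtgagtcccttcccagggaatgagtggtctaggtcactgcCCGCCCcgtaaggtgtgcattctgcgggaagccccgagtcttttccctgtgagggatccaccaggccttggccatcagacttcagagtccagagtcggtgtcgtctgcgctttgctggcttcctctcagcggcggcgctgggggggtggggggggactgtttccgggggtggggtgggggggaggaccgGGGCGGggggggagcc
Zbtb24 (chr10:41450108-41450357, plus strand): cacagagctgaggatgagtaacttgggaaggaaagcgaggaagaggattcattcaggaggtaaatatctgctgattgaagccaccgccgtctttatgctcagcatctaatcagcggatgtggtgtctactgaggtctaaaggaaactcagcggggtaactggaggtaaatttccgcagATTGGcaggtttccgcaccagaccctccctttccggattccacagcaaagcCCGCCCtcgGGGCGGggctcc

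The windows of Zbtb34 and Zbtb7a, whose RNAs showed the largest rises in WT MEFs, each held 5 GC boxes and no CCAAT box, with GC contents of 74.4% and 78%. The Zbtb3 window, from the gene with the largest fall, held 4 CCAAT boxes and 1 GC box at 53.2% GC. Zbtb4 held 2 GC boxes at 67.6% GC, and Zbtb24 held 2 GC boxes and 1 CCAAT box at 53.6% GC. RefSeq windows were matched for 34 of the 39 genes (47 windows). A GC box was present in 59.6% of these 47 windows and in 32.7% of all 32851 windows, and a CCAAT box in 27.7% and 33.8%. The members' median GC content was 64.4% against 52.4% over all windows, and the median CpG count was 20 against 6. The other motifs searched on both strands were TGACGTCA (2.13% of member windows and 1.55% of all), CACGTG (10.6% and 6.02%) and TATAAA (10.6% and 12.4%). These matches describe letters in the windows and were not tested against the responses.

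The median of an array was 6.158 to 6.246 for MEFs, and for hepatocytes it was 5.877 to 6.078. The correlation of an array with the others of its group was at least 0.9973. The hepatocyte markers Alb, Apoa1, Ttr, Apob and Fgb lay between 13.15 and 14.77 in hepatocytes and between 4.83 and 7.02 in MEFs. The 6 fibroblast markers lay between 5.51 (Thy1) and 13.97 (Vim) in MEFs. In hepatocytes they lay between 5.19 (Col1a1) and 8.67 (Vim), with Thy1 at 5.39, close to its level in MEFs. On its single probe set Prkaa1, which encodes AMPKα1, differed between dKO and WT by -0.09 ± 0.10 in MEFs and by -1.11 ± 0.09 in hepatocytes (adjusted p = 0.514 and 0.194). Prkaa2, which encodes AMPKα2, differed by -0.32 ± 0.08 and -0.10 ± 0.08 (adjusted p = 0.00116 and 0.993). The labels do not say whether these probes lie within the deleted parts, so they do not check the genotypes.

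With vehicle, the members covered a wide range of intensities, which cannot be ranked between genes because each probe set has its own response. No comparison called 6 of the 39 members, Zbtb18, Zbtb32, Zbtb33, Zbtb49, Zbtb7b and Zbtb7c, whose changes ran from -0.17 to 0.19. The share of all genes never called is not given here, so this count says nothing particular about the members. Zbtb33 read 10.10 ± 0.01 (SD, n = 4) and Zbtb32 5.36 ± 0.14 (SD, n = 4) in WT MEFs with vehicle. Between the genotypes of MEFs, 13 members were higher and 5 lower in dKO with vehicle. That is 46.2% of the members, beside 47.3% of all genes called, 28.0% higher and 19.2% lower. The 5 largest differences in the higher direction were Zbtb42 (0.57 ± 0.06), Zbtb46 (0.51 ± 0.10), which marks classical dendritic cells among blood cells, Zbtb43 (0.43 ± 0.04), Zbtb20 (0.39 ± 0.04) and Zbtb8b (0.30 ± 0.10). The 5 lower members were Zbtb44 (-0.36 ± 0.08), Zbtb45 (-0.33 ± 0.08), Zbtb25 (-0.31 ± 0.06), Zbtb14 (-0.25 ± 0.09) and Zbtb2 (-0.21 ± 0.03). All 6 fibroblast markers were also lower in dKO MEFs, with summed levels of 14.28 to 14.30 against 15.31 to 15.35 in WT, and so were all 4 cholangiocyte markers (Krt19, Krt7, Epcam and Sox9, which mark epithelial cells), with sums of 9.71 to 9.76 against 10.54 to 10.72. The part of these markers in the differences was not tested. After quantile normalization the split became 13 higher and 9 lower, and the same counts came with the width of the array's distribution as a covariate. The call of Zbtb14 was lost without dKO vehicle replicate 2 or WT vehicle replicate 4, and that of Zbtb8b without either of these or without WT vehicle replicate 2 (adjusted p between 0.057 and 0.127). With all probe sets of a gene averaged, Zbtb25 and Zbtb2 each changed to -0.10 and lost the call (adjusted p = 0.130 and 0.0999), and the other probe set of Zbtb25 gave 0.11. In hepatocytes limma called no member and none of the 18193 genes between the genotypes, so the count of 0 says nothing particular about the members. An unadjusted p under 0.05 was reached by 2 members (5.13%) and by 4.65% of all genes.

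The comparison of AICAR with vehicle in WT MEFs asks which members respond where AMPK is present. Of the 39 members, 13 rose and 5 fell. The called share was 46.2%, against 35.0% of all genes. Rises made up 33.3% of the members against 19.6% of all genes, and falls 12.8% against 15.5%. The median size of the change was 0.14 among members and 0.11 over all genes, and 10 called members changed by at least 1.5-fold. No share of all genes at that cutoff is given here, so the count of 10 says nothing particular about the members. After quantile normalization, or with the width of the array's distribution as a covariate, the split was 13 higher and 8 lower.

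**Figure D1:**
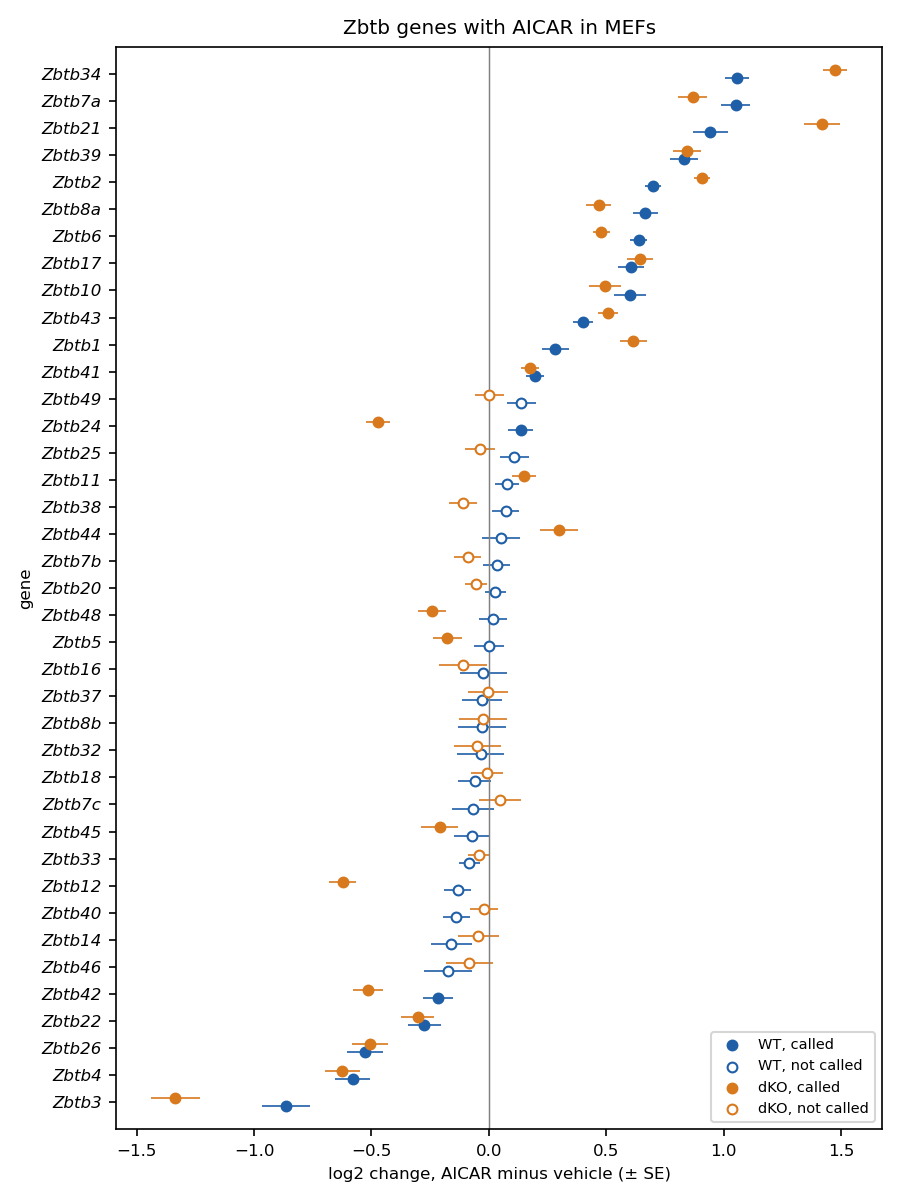
Change of each of the 39 Zbtb genes with AICAR in MEFs, as log2 differences from vehicle ± SE, in WT (blue) and dKO cells (orange), ordered by the WT change. Filled points are called at an adjusted p under 0.05; Zbtb34 leads in both genotypes (1.06 and 1.48), Zbtb3 is lowest in both (-0.86 and -1.34), and Zbtb24 lies on opposite sides of 0.

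Zbtb34 read 7.38, 7.44, 7.35 and 7.45 on the 4 vehicle arrays of WT MEFs and 8.43, 8.48, 8.48 and 8.46 on the 4 AICAR arrays. In dKO cells it read 7.60, 7.68, 7.71 and 7.65 with vehicle and 9.16, 9.21, 9.11 and 9.06 with AICAR. All 8 AICAR arrays lay above all 8 vehicle arrays, and the AICAR arrays of dKO cells lay above those of WT cells. Zbtb34 rose by 1.06 ± 0.05 in WT and by 1.48 ± 0.05 in dKO (adjusted p = 9.01e-17 and 1.23e-20).

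Zbtb7a encodes LRF, a repressor of fetal globin genes and of the Arf tumour suppressor. It read 7.54, 7.79, 7.62 and 7.71 with vehicle and 8.59, 8.83, 8.76 and 8.70 with AICAR in WT MEFs. In dKO cells the vehicle arrays read 7.60, 7.61, 7.55 and 7.55 and the AICAR arrays 8.42, 8.54, 8.52 and 8.31. The groups did not overlap in either genotype, and the changes were 1.05 ± 0.06 and 0.87 ± 0.06 (adjusted p = 7.02e-15 and 3.12e-13).

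Zbtb21 read 7.15, 7.48, 7.37 and 7.28 with vehicle and 8.06, 8.47, 8.38 and 8.15 with AICAR in WT MEFs, with no overlap. In dKO cells the 4 vehicle arrays read 7.58, 7.50, 7.62 and 7.59, and the 4 AICAR arrays 9.01, 9.06, 9.05 and 8.85. The rise was 0.94 ± 0.08 in WT and 1.42 ± 0.08 in dKO (adjusted p = 1.26e-11 and 4.14e-16).

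Zbtb39 read 7.74, 7.95, 7.66 and 7.72 with vehicle and 8.47, 8.72, 8.62 and 8.59 with AICAR in WT MEFs. In dKO cells it read between 7.72 and 7.74 on the 4 vehicle arrays and 8.61, 8.56, 8.55 and 8.58 with AICAR. The 2 rises were nearly equal in size, 0.83 ± 0.06 in WT and 0.85 ± 0.06 in dKO (adjusted p = 7.7e-13 and 2.57e-13).

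Zbtb2 read 9.61, 9.65, 9.69 and 9.64 with vehicle and 10.33, 10.38, 10.36 and 10.33 with AICAR in WT MEFs. The dKO arrays read 9.46, 9.49, 9.41 and 9.41 with vehicle and 10.36, 10.41, 10.29 and 10.35 with AICAR. On this probe set the dKO cells thus started lower and reached the same range as WT cells with AICAR. On the other probe set the genotypes differed by 0.01 with vehicle, which was not called. There AICAR gave 0.52 in WT and 0.28 in dKO, both called higher. The change on the brighter probe set was 0.70 ± 0.03 in WT and 0.91 ± 0.03 in dKO (adjusted p = 7.96e-17 and 4.97e-20).

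**Figure D2:**
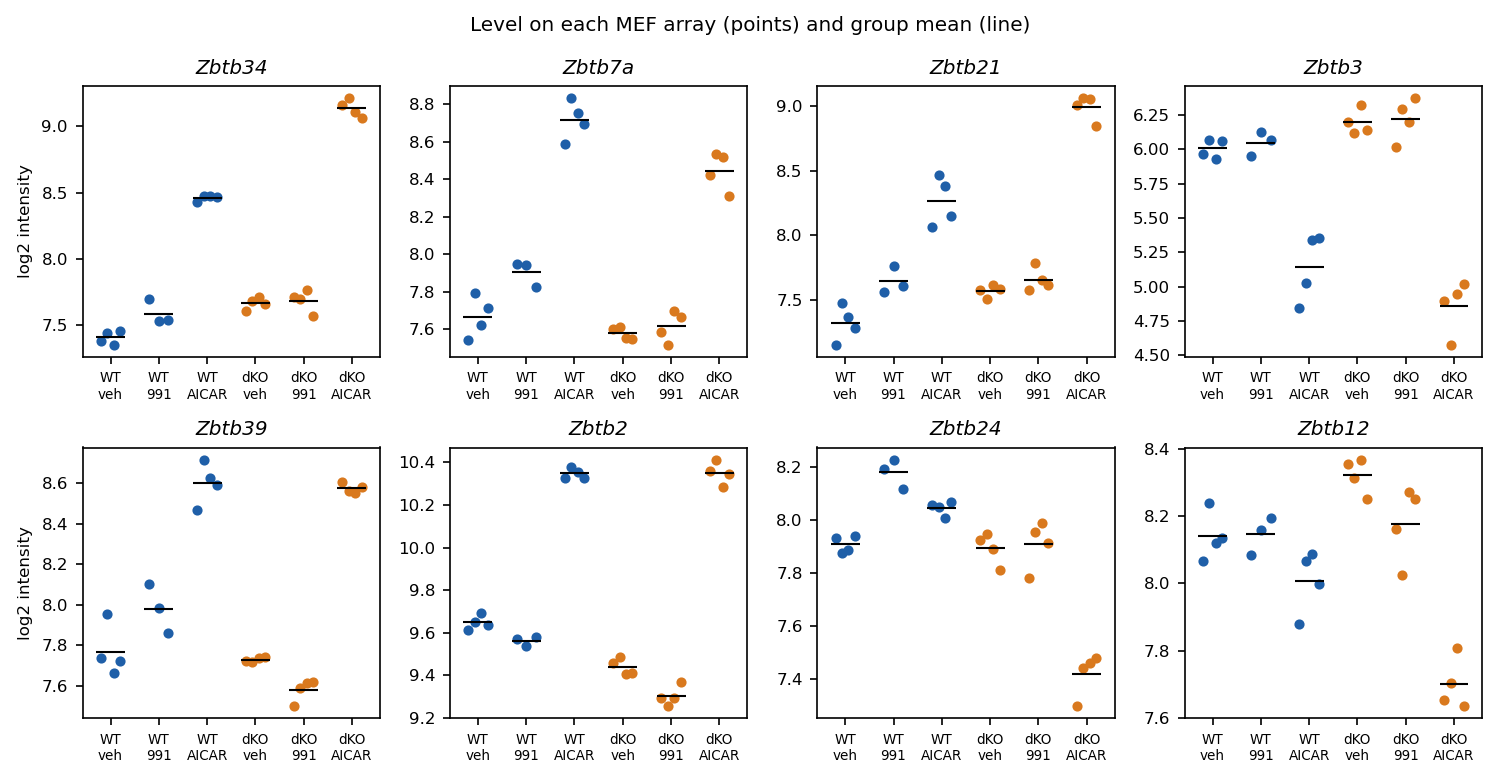
Log2 intensity of 8 Zbtb genes on each MEF array (points) with the mean of each group (line), in WT (blue) and dKO cells (orange) with vehicle (veh), 991 or AICAR. Each panel has its own scale; AICAR and vehicle arrays do not overlap in either genotype except for Zbtb12 in WT cells.

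The remaining large rises in WT MEFs were Zbtb8a (0.67 ± 0.05), Zbtb6 (0.64 ± 0.04) and Zbtb17 (0.61 ± 0.05), which encodes Miz-1, a DNA-binding partner of Myc. Their rises in dKO MEFs were 0.47 ± 0.05, 0.48 ± 0.04 and 0.64 ± 0.05. The other 5 called rises in WT ran from 0.14 for Zbtb24 to 0.60 for Zbtb10. Zbtb1, a factor needed for lymphoid development, rose by 0.28 ± 0.06 in WT and by 0.62 ± 0.06 in dKO. Zbtb43 rose by 0.40 ± 0.04 and 0.51 ± 0.04.

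Zbtb3 showed the largest fall. It read 5.97, 6.07, 5.93 and 6.06 with vehicle and 4.84, 5.03, 5.34 and 5.36 with AICAR in WT MEFs. In dKO cells it read 6.20, 6.12, 6.32 and 6.14 with vehicle and 4.90, 4.58, 4.95 and 5.02 with AICAR, so the groups did not overlap in either genotype. The change was -0.86 ± 0.10 in WT and -1.34 ± 0.10 in dKO (adjusted p = 4.15e-08 and 2.4e-12).

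Zbtb4, which encodes a protein that binds methylated CpG sites, fell by 0.58 in WT (-0.58 ± 0.07) and by 0.62 in dKO (-0.62 ± 0.07). Zbtb26 changed by -0.53 ± 0.08 and -0.51 ± 0.08, Zbtb22 by -0.27 ± 0.07 and -0.30 ± 0.07, and Zbtb42 by -0.22 ± 0.06 and -0.51 ± 0.06, all called. The other 2 methyl-CpG binding members, Zbtb33 (Kaiso) and Zbtb38, were not called with AICAR in either genotype.

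In dKO MEFs, which lack the catalytic subunits of AMPK, 14 members rose and 10 fell with AICAR. The called share was 61.5%, against 40.2% of all genes, with 20.4% of all genes called higher and 19.8% lower. The median size of the change was 0.24 among members and 0.12 over all genes. Of the 13 rises in WT, 12 were also called in dKO (92.3% of the WT rises and 85.7% of the dKO rises). All 5 falls in WT were called in dKO, where they made up 50% of the falls. Zbtb11 and Zbtb44 were called higher in dKO without a call in WT, and Zbtb5, Zbtb12, Zbtb45 and Zbtb48 were called lower. Neither genotype gave a call for 15 of the 39 members. Among them were Zbtb16 (PLZF), Zbtb18 (RP58) and Zbtb7b (ThPOK), which direct differentiation of innate-like T cells, neurons and CD4+ T cells. The shares of all genes called in both genotypes or in neither are not given here. These overlaps therefore say nothing particular about the members. The calls of the 8 largest rises and the 5 falls in WT, and of the 8 largest rises and 8 largest falls in dKO, were kept under all alternatives run, and the other calls were recomputed only as part of the counts. With AICAR 4 of the 6 fibroblast markers fell in each genotype and the other 2 rose in dKO, with summed levels of 15.18 to 15.21 against 15.31 to 15.35 in WT and 14.15 to 14.21 against 14.28 to 14.30 in dKO, and their part in the results was not tested.

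The interaction, the AICAR effect in WT minus that in dKO, tests whether the response depends on genotype. It was called for 10 members in MEFs, 6 positive and 4 negative, which is 25.6% of the members against 12.1% of all genes, of which 7.93% were positive and 4.18% negative. For 4 members that rose in both genotypes the rise was larger in dKO, Zbtb21 (-0.48 ± 0.11), Zbtb34 (-0.42 ± 0.07), Zbtb1 (-0.33 ± 0.08) and Zbtb2 (-0.21 ± 0.05). For Zbtb3 (0.47 ± 0.15) and Zbtb42 (0.30 ± 0.09) the fall was larger in dKO. Zbtb6 rose more in WT than in dKO (0.16 ± 0.05). With each array centred on its median, 6 members were called, 2 positive and 4 negative, and with the mean of all probe sets 5 were positive and 2 negative.

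Zbtb24 changed in opposite directions in the 2 genotypes. It encodes a factor mutated in ICF syndrome, in which methylation of pericentromeric DNA is lost. It read 7.93, 7.88, 7.89 and 7.94 with vehicle and 8.06, 8.05, 8.01 and 8.07 with AICAR in WT MEFs. In dKO cells it read 7.93, 7.95, 7.89 and 7.81 with vehicle and 7.30, 7.44, 7.46 and 7.48 with AICAR. The 4 dKO arrays with AICAR were the lowest of the 16. The changes were 0.14 ± 0.05 and -0.47 ± 0.05, and the interaction was 0.61 ± 0.07 (adjusted p = 6.67e-07). On its dimmer probe set AICAR gave -0.41 ± 0.11 in WT and -0.44 ± 0.11 in dKO, both called lower, so the WT direction differs between the 2 probe sets.

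Zbtb12 read 8.07, 8.24, 8.12 and 8.14 with vehicle and between 7.88 and 8.09 on the 4 AICAR arrays of WT MEFs, and these groups overlapped. In dKO cells the vehicle arrays read 8.35, 8.31, 8.37 and 8.25 and the AICAR arrays 7.65, 7.70, 7.81 and 7.63, with no overlap. The changes were -0.13 ± 0.06, which was not called, and -0.62 ± 0.06, and the interaction was 0.49 ± 0.08 (adjusted p = 9.12e-05). Zbtb48, which encodes the telomere-binding factor TZAP, had an interaction of 0.26 ± 0.09.

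The interactions of Zbtb12, Zbtb21, Zbtb24 and Zbtb34 were called under all alternatives run. Not every probe set of these genes gave the call. It came from 1 of 3 probe sets of Zbtb21, whose interactions ran from -0.48 to -0.15. For Zbtb34 it came from 1 of 2 (-0.42, with -0.08 on the other), and likewise for Zbtb24 (0.61 and 0.04). Zbtb12 has 1 probe set. Those of Zbtb1, Zbtb2 and Zbtb3 were lost when all probe sets of the gene were averaged, at -0.0044 for Zbtb1, 0.015 for Zbtb2, which reversed, and 0.22 for Zbtb3 (adjusted p = 0.989, 0.943 and 0.209). With each array centred on its median, those of Zbtb3, Zbtb6, Zbtb42 and Zbtb48 were lost (adjusted p between 0.051 and 0.186). The interaction of Zbtb3 was also lost without any of 6 arrays, namely replicates 3 and 4 of WT AICAR, 1 and 3 of WT vehicle, 2 of dKO AICAR and 3 of dKO vehicle (adjusted p between 0.055 and 0.086). That of Zbtb42 was lost without replicates 2 or 3 of WT AICAR, 3 of WT vehicle, 1 or 3 of dKO AICAR or 3 of dKO vehicle (0.051 to 0.077). The Zbtb48 interaction was lost without 11 of the 16 vehicle and AICAR arrays, all but replicate 1 of WT AICAR, 2 of WT vehicle, 2 and 4 of dKO AICAR and 4 of dKO vehicle (0.055 to 0.121). That of Zbtb6 was lost without 12 of them, all but replicates 1 and 2 of WT AICAR, 2 of WT vehicle and 1 of dKO AICAR (0.053 to 0.093).

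The compound 991 in WT MEFs raised 10 members and lowered none. That is 25.6% of the members, beside 19.7% of all genes called, 14.0% higher and 5.65% lower. The largest rises were Zbtb21 (0.32 ± 0.08), Zbtb24 (0.27 ± 0.06), Zbtb8a (0.26 ± 0.06), Zbtb14 (0.26 ± 0.10) and Zbtb7a (0.24 ± 0.07). No member changed by 1.5-fold, and the share of all genes that did is not given here. Zbtb24 read 8.19, 8.23 and 8.12 on the 3 arrays with 991, above all 4 WT vehicle arrays. The 3 arrays with 991 read 7.56, 7.76 and 7.61 for Zbtb21, also above the vehicle arrays, and 7.95, 7.94 and 7.83 for Zbtb7a, likewise above them. The compounds were used at different concentrations and share the vehicle arrays, so the AICAR and 991 values stand side by side only. Of the 5 rises named here, that of Zbtb24 was called under all alternatives run, and Zbtb7a changed to 0.08 with all probe sets averaged (adjusted p = 0.231). With the width of the array's distribution as a covariate 1 member was called, and quantile normalization gave 4 higher and 1 lower. The count fell to 3 without WT 991 replicate 2, to 4 without WT 991 replicate 3 or WT vehicle replicate 1, and to 5 without WT vehicle replicate 3. The call of Zbtb21 was lost without WT 991 replicate 3, that of Zbtb7a without WT 991 replicate 2 or 3 or WT vehicle replicate 1, and that of Zbtb14 without any of 16 of the 23 arrays (adjusted p up to 0.064, 0.065 and 0.366).

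In dKO MEFs 991 lowered Zbtb2 (-0.14 ± 0.03, adjusted p = 0.0191), the 1 member called, against 3.46% of all genes (1.88% higher and 1.58% lower). That call was lost without dKO vehicle replicate 1 or 2 or dKO 991 replicate 2 (adjusted p between 0.066 and 0.087), with each array centred on its median (0.065) and with all probe sets averaged (0.372). The 991 interaction was called for 2 members, Zbtb39 (0.36 ± 0.09, adjusted p = 0.0123) and Zbtb8a (0.27 ± 0.08, adjusted p = 0.0451), or 5.13% of the members against 5.28% of all genes (4.37% higher and 0.912% lower). Zbtb39 read 8.10, 7.98 and 7.86 with 991 in WT cells, which overlapped the WT vehicle arrays. In dKO cells it read 7.50, 7.59, 7.62 and 7.62, below all 4 dKO vehicle arrays. The Zbtb39 interaction was lost without WT 991 replicate 2 (adjusted p = 0.068), and the count of 2 members became 0 without that array. Without dKO 991 replicate 3 or WT 991 replicate 4 the count was 4, and it was 1 without any of 10 other arrays, WT vehicle replicates 1 and 3, WT 991 replicate 3, WT AICAR replicate 3, dKO vehicle replicates 1, 2 and 3, dKO 991 replicates 1 and 2, and dKO AICAR replicate 3. The Zbtb8a interaction was lost without WT 991 replicate 2, without any of these 10 arrays or without dKO 991 replicate 3 (adjusted p between 0.051 and 0.136). With the width of the array's distribution as a covariate neither interaction was called (adjusted p = 0.169 and 0.248), and that of Zbtb8a was also lost with every probe set tested, without the variance trend, with the replicate block and after quantile normalization (adjusted p between 0.056 and 0.185). After quantile normalization the count was 1 higher and 1 lower.

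In WT hepatocytes 4 members rose and 7 fell with AICAR. That is 28.2% of the members against 16.5% of all genes, of which 8.51% were called higher and 7.99% lower. The largest rise was that of Zbtb16, which encodes PLZF. It read 8.83 and 8.94 in the 2 WT preparations with vehicle and 9.62 and 9.67 with AICAR. In dKO hepatocytes it read 9.38 and 9.32 with vehicle and 9.97 and 9.96 with AICAR. The groups did not overlap, and the changes were 0.77 ± 0.06 and 0.61 ± 0.06 (adjusted p = 2.78e-05 and 6.67e-05). In MEFs Zbtb16 was not called with AICAR.

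**Figure D3:**
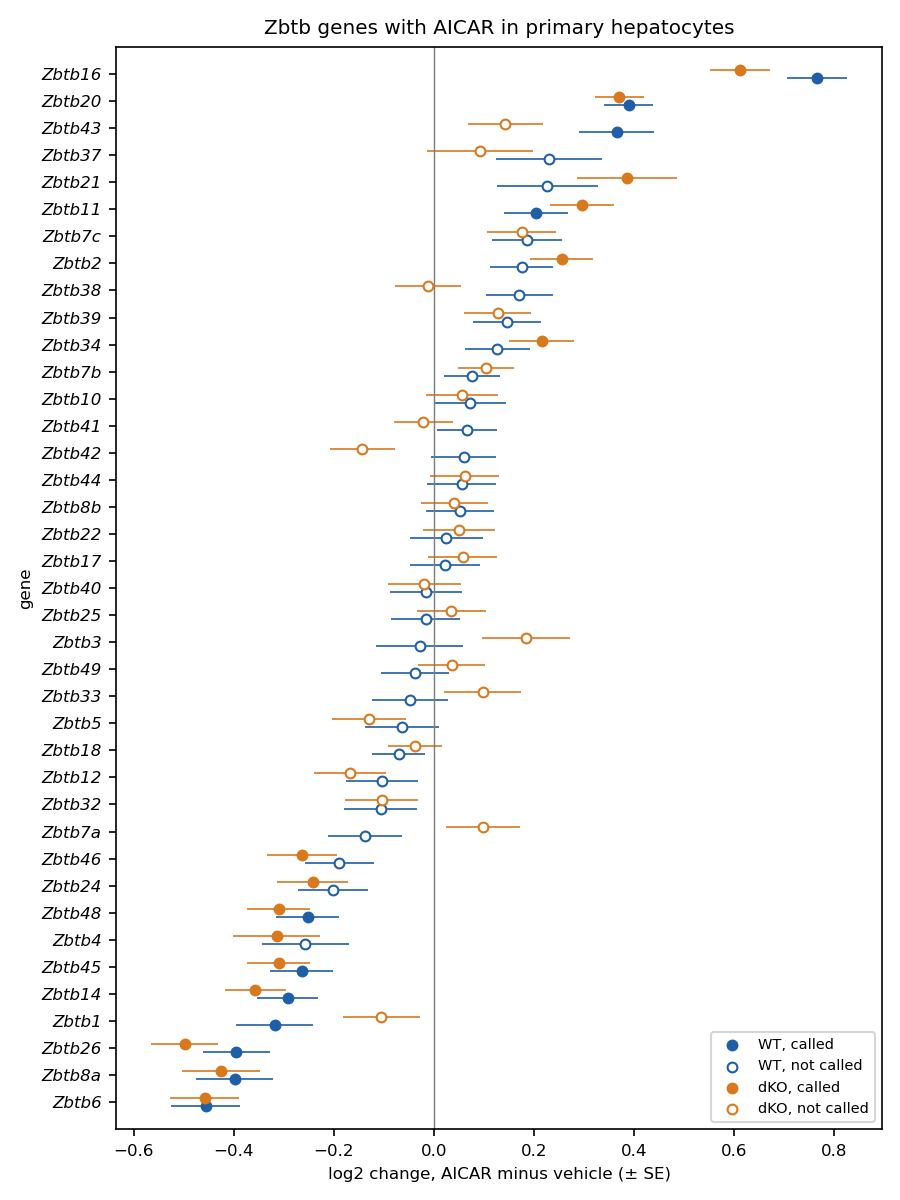
Change of each of the 39 Zbtb genes with AICAR in primary hepatocytes, as log2 differences from vehicle ± SE over 2 preparations per genotype, in WT (blue) and dKO cells (orange), ordered by the WT change. Filled points are called at an adjusted p under 0.05; Zbtb16 is highest in both genotypes, and Zbtb6, Zbtb8a and Zbtb26 are the lowest 3 in both.

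Zbtb20 read 10.99 and 10.93 with vehicle and 11.44 and 11.25 with AICAR in the 2 WT preparations. The dKO preparations read 10.87 and 10.99 with vehicle and 11.27 and 11.33 with AICAR. Every AICAR preparation lay above every vehicle preparation, and the changes were 0.39 ± 0.05 and 0.37 ± 0.05 (adjusted p = 0.000443 and 0.000474). Afp, the known target that Zbtb20 represses in liver, changed by -0.66 ± 0.10 in WT, which was called, and by -0.24 ± 0.10 in dKO, which was not (adjusted p = 0.00118 and 0.113). The difference between these Afp changes was not called (interaction -0.42 ± 0.14, adjusted p = 0.401).

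Zbtb43 read 9.52 and 9.49 with vehicle and 10.04 and 9.70 with AICAR in WT, a change of 0.37 ± 0.08 (adjusted p = 0.00726). In dKO it read 9.50 and 9.64 with vehicle and 9.67 and 9.76 with AICAR, a change of 0.14 that was not called. Preparation 1 of WT gave the larger of the WT differences, and without it the call was lost (0.21, adjusted p = 0.119). Zbtb11 rose by 0.20 ± 0.06 in WT, a call lost without any 1 of the 4 preparations (adjusted p between 0.052 and 0.357), and by 0.30 ± 0.06 in dKO.

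The 3 largest falls were in Zbtb6, Zbtb8a and Zbtb26. Zbtb6 read 7.82 and 7.88 with vehicle and 7.46 and 7.32 with AICAR in WT, and 7.82 and 7.88 with vehicle and 7.42 and 7.37 with AICAR in dKO. It changed by -0.46 ± 0.07 in both genotypes (adjusted p = 0.00134 and 0.00107). Zbtb8a read 7.17 and 7.16 with vehicle and 6.83 and 6.69 with AICAR in WT, and 7.10 and 7.29 against 6.68 and 6.86 in dKO. Its changes were -0.40 ± 0.08 and -0.43 ± 0.08. Zbtb26 read 6.94 and 7.02 with vehicle and 6.64 and 6.53 with AICAR in WT, and 7.08 and 7.14 against 6.62 and 6.59 in dKO. Its changes were -0.40 ± 0.07 and -0.50 ± 0.07. For these 3 genes no AICAR preparation overlapped a vehicle preparation of its genotype. They were picked for the size of their falls, and the share of all genes without overlap is not given here. The other 4 falls in WT were Zbtb1 (-0.32), Zbtb14 (-0.29), Zbtb45 (-0.26) and Zbtb48 (-0.25).

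In dKO hepatocytes 6 members rose and 9 fell with AICAR, 38.5% of the members against 17.8% of all genes, of which 10.5% were called higher and 7.31% lower. Besides Zbtb16, Zbtb20 and Zbtb11 the rises were Zbtb21 (0.39 ± 0.10), Zbtb2 (0.26 ± 0.06) and Zbtb34 (0.22 ± 0.06). With all probe sets of a gene averaged, Zbtb21 was at 0.04 and Zbtb34 at 0.12, and neither was called (adjusted p = 0.798 and 0.141). The 3 probe sets of Zbtb21 ran from -0.20 to 0.39 in dKO, and 1 of them was called lower in WT (-0.36). Of the 9 falls, 6 were also called in WT, namely Zbtb6, Zbtb8a, Zbtb14, Zbtb26, Zbtb45 and Zbtb48, which make up 85.7% of the WT falls and 66.7% of the dKO falls. Of the rises, 3 were called in both genotypes, 75% of those in WT and 50% of those in dKO. The shares of all genes called in both genotypes of hepatocytes are not given here, so these overlaps say nothing particular about the members. The interaction was called for no member in limma, against 0.308% of all genes, and 2 members (5.13%) had an unadjusted p under 0.05, against 8.75% of all genes. The members' interactions ran from -0.23 to 0.22.

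The hepatocyte calls rest on 2 preparations per genotype. Those of Zbtb6, Zbtb16 and Zbtb20 were kept under all alternatives run in both genotypes, and that of Zbtb26 in dKO. The count in WT was 5 without WT preparation 1 and 5 without WT preparation 2, and the count in dKO was 4 without dKO preparation 1 and 9 without dKO preparation 2. In WT the calls of Zbtb1, Zbtb14, Zbtb45 and Zbtb48 were lost without either WT preparation, and that of Zbtb26 without WT preparation 2 (adjusted p between 0.054 and 0.266). In dKO the calls of Zbtb2, Zbtb8a, Zbtb34, Zbtb46 and Zbtb48 were lost without either dKO preparation, and those of Zbtb4, Zbtb11, Zbtb14, Zbtb21 and Zbtb45 without dKO preparation 1 (adjusted p between 0.055 and 0.501). The Zbtb4 call was also lost without either WT preparation (adjusted p = 0.053 and 0.054). With all probe sets averaged, Zbtb26 in WT (-0.14, adjusted p = 0.122) and Zbtb4 in dKO (-0.12, adjusted p = 0.187) also lost their calls. With the mean of all probe sets the WT split was 7 higher and 6 lower. Of 5 endothelial markers 2 were called higher with AICAR in WT hepatocytes and 3 in dKO, none lower. Their summed level was 9.38 to 9.79 with vehicle and 9.79 to 10.21 with AICAR in WT, and 9.40 to 9.76 and 9.73 to 10.14 in dKO. Of 5 Kupffer cell markers none was called in WT and 3 were called higher in dKO, with sums of 11.68 to 12.28 with vehicle and 11.81 to 12.34 with AICAR in WT, and 10.73 to 11.18 and 11.02 to 11.43 in dKO. The part of these cells in the results was not tested, and in such bulk samples fewer cells of a type and less RNA per cell cannot be told apart.

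With 991, 3 members rose and 2 fell in WT hepatocytes, 12.8% of the members against 6.07% of all genes (3.72% higher and 2.36% lower). Zbtb21 read 9.45 and 9.29 with vehicle and 9.85 and 9.81 with 991 (0.46 ± 0.10, adjusted p = 0.0212). Zbtb2 read 8.49 and 8.46 with vehicle and 8.85 and 8.89 with 991 (0.39 ± 0.06, adjusted p = 0.00386). Zbtb10, which encodes a repressor at GC-rich Sp1 sites, read 8.12 and 7.87 with vehicle and 8.38 in each preparation with 991 (0.39 ± 0.07, adjusted p = 0.00874). In these 3 genes the preparations with 991 lay above those with vehicle. The falls were Zbtb40 (-0.33 ± 0.07) and Zbtb45 (-0.27 ± 0.06). In dKO hepatocytes limma called no member with 991, against 0.00550% of all genes, and 4 members (10.3%) had an unadjusted p under 0.05, against 4.50% of all genes. The 991 interaction was likewise called for no member, against 0.412% of all genes (0.330% higher and 0.0824% lower), with 5 members (12.8%) at an unadjusted p under 0.05 against 7.78% of all genes, so a dependence of these changes on genotype was not shown. The count in WT was 2 without WT preparation 1 and 0 without WT preparation 2, and with the width of the array's distribution as a covariate it was 1 higher and 0 lower. The calls of Zbtb21, Zbtb40 and Zbtb45 were lost without either WT preparation, and those of Zbtb2 and Zbtb10 without WT preparation 2 (adjusted p between 0.081 and 0.318).

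**Figure D4:**
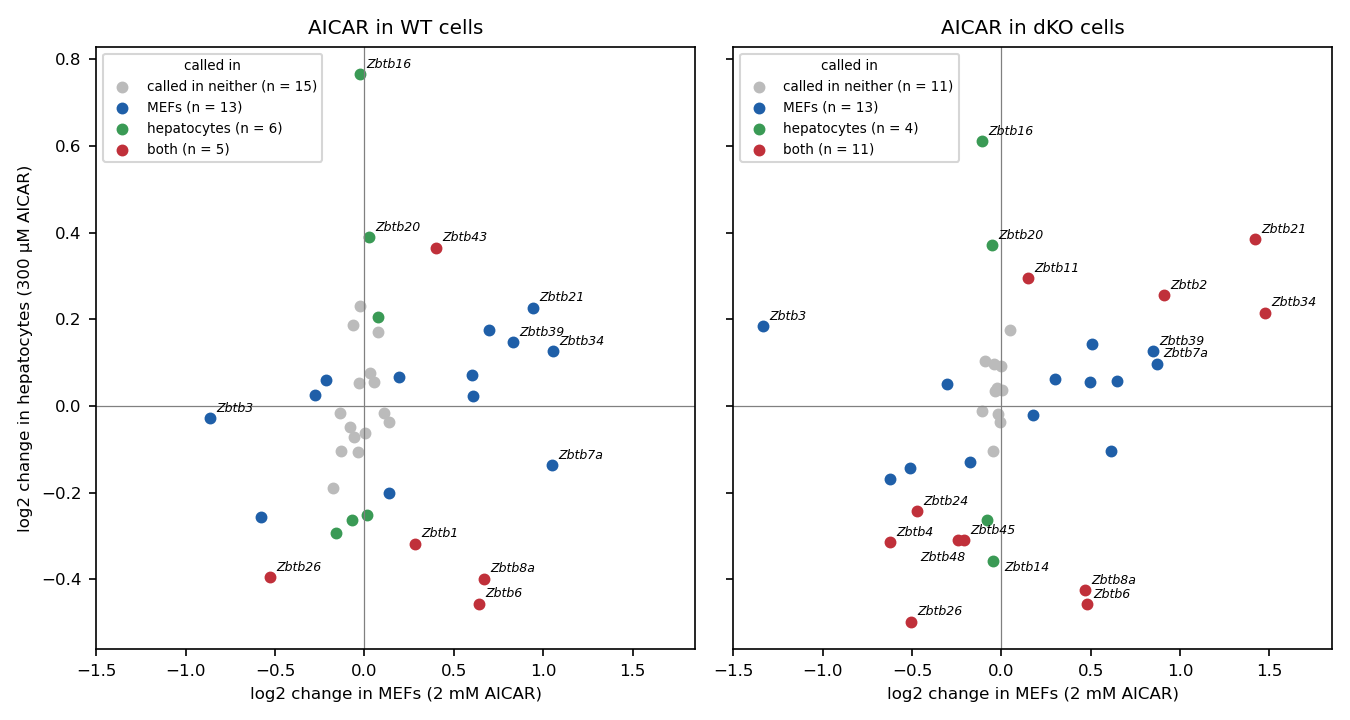
Change with AICAR in hepatocytes (vertical, log2) against that in MEFs (horizontal, log2) for the 39 Zbtb genes, in WT (left) and dKO cells (right), coloured by where the gene was called. Zbtb6 and Zbtb8a lie at the lower right in both panels, higher in MEFs and lower in hepatocytes.

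The 2 cell types were treated at different concentrations of AICAR and tested separately, so their values stand side by side without a test of the difference. In WT cells 5 members were called in both cell types. Zbtb6, Zbtb8a and Zbtb1 were higher in MEFs and lower in hepatocytes, Zbtb43 was higher in both and Zbtb26 was lower in both. In dKO cells 11 members were called in both. Of these, Zbtb2, Zbtb11, Zbtb21 and Zbtb34 were higher in both cell types, Zbtb4, Zbtb24, Zbtb26, Zbtb45 and Zbtb48 were lower in both, and Zbtb6 and Zbtb8a were higher in MEFs and lower in hepatocytes. No member was lower in MEFs and higher in hepatocytes with calls in both. The share of all genes called in both cell types is not given here, so these counts say nothing particular about the members. Of the largest rises in MEFs, Zbtb21 (0.39), Zbtb2 (0.26) and Zbtb34 (0.22) were called in dKO hepatocytes and not in WT hepatocytes. Zbtb7a changed by -0.14 in WT and 0.10 in dKO hepatocytes, and neither value was called. Zbtb34 changed by 0.13 in WT hepatocytes without a call.

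In RefSeq gene order 4 pairs of members are neighbours, Zbtb6 with Zbtb26, Zbtb34 with Zbtb43, Zbtb1 with Zbtb25, and Zbtb8a with Zbtb8b. Zbtb6 and Zbtb26 moved in opposite directions with AICAR in MEFs (0.64 and -0.53 in WT) and both fell in hepatocytes. The other probe set of Zbtb26 was not called with AICAR. It gave 0.08 in WT and 0.002 in dKO MEFs, and 0.12 in WT and -0.10 in dKO hepatocytes. Zbtb34 and Zbtb43 both rose in MEFs of each genotype. Zbtb25 and Zbtb8b were not called with AICAR in either cell type, while their neighbours Zbtb1 and Zbtb8a were.

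Of the 39 genes, 26 had several probe sets and 13 had 1, and the probe sets of a gene share its transcripts without being replicates. Over the 86 probe sets, AICAR calls numbered 20 higher and 11 lower in WT MEFs and 24 and 16 in dKO MEFs, where 31.7% and 37.8% of all probe sets were called. Of all probe sets 18.0% were higher and 13.8% lower in WT, and 20.1% and 17.7% in dKO. In hepatocytes they numbered 17 higher and 11 lower in each genotype, where 18.2% and 20.8% of all probe sets were called. There 8.39% of all probe sets were higher and 9.86% lower in WT, and 9.97% and 10.8% in dKO. Of the 17 member probe sets called higher in each genotype, 9 were of Zbtb20 and 3 of Zbtb16. Both probe sets of Zbtb34 and of Zbtb2 rose in WT MEFs, and 3 of the 4 of Zbtb4 fell. Of the 3 probe sets of Zbtb7a, 2 rose (1.05 ± 0.06 and 1.25 ± 0.06) and 1 did not pass (0.05 ± 0.08). For Zbtb21 the rise in WT MEFs came from 1 of 3 probe sets (0.94 ± 0.08), with -0.09 and -0.01 for the others, whereas all 3 rose with 991 in WT hepatocytes (0.46, 0.62 and 0.64). For Zbtb3 the fall came from 1 of 2 probe sets, and the other gave -0.11 ± 0.11. Zbtb10 gave opposite calls with 991 in WT MEFs, 0.42 ± 0.08 on one probe set and -0.32 ± 0.09 on another, while its representative was not called.

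**Figure D5:**
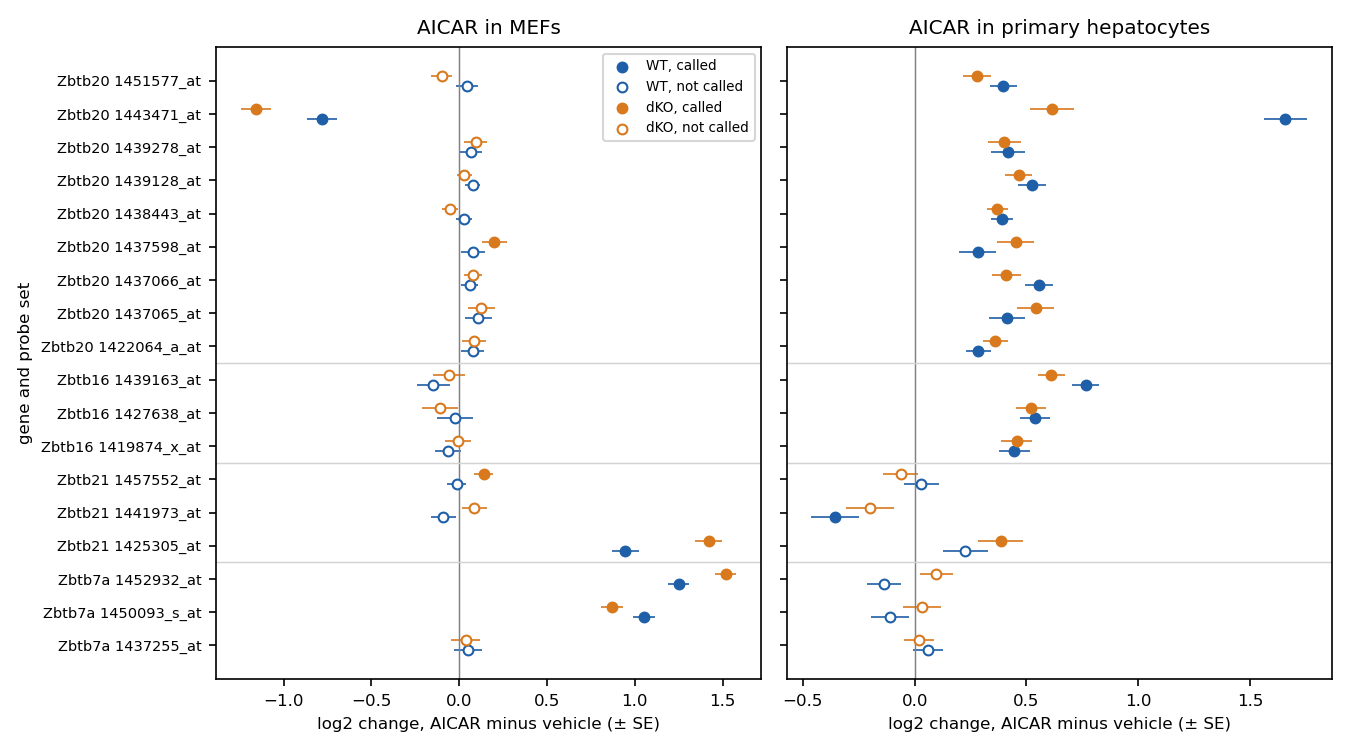
Change with AICAR of each probe set of Zbtb7a, Zbtb21, Zbtb16 and Zbtb20, as log2 differences from vehicle ± SE, in MEFs (left) and hepatocytes (right), WT blue and dKO orange, filled where called. All 9 probe sets of Zbtb20 rose in hepatocytes, and 1 of them stands apart in both cell types, lowest in MEFs and highest in hepatocytes.

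Zbtb20 had 9 probe sets, the most of any member. All 9 rose with AICAR in hepatocytes of both genotypes, as did all 3 of Zbtb16. In Zbtb20, 1 probe set differed from the other 8, which was noticed after its values were seen. It rose by 1.66 ± 0.10 in WT and by 0.61 ± 0.10 in dKO hepatocytes, and it was 1 of 2 member probe sets whose AICAR interaction was called there, against 2.52% of all probe sets (1.04 ± 0.14, adjusted p = 0.00164). The other 8 rose by 0.28 to 0.56 in WT and by 0.28 to 0.54 in dKO. In MEFs the same probe set changed by -0.78 ± 0.09 in WT and -1.16 ± 0.09 in dKO, both called lower, while the other 8 lay between 0.03 and 0.11 in WT and between -0.10 and 0.20 in dKO, with 1 called higher in dKO. The part of the Zbtb20 transcripts that each probe set reads was not analysed here.

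Genes related to the family were counted from companion lists. Of 8 measured genes with a BTB domain and zinc fingers under other names, 3 rose and 2 fell with AICAR in WT MEFs, and 3 rose and 4 fell in dKO MEFs, which is 62.5% and 87.5% called. Beside them stand the 35.0% and 40.2% of all genes called (19.6% and 20.4% higher). Bcl6, a repressor that drives germinal centre B cells, changed by -0.98 ± 0.10 in WT and by -2.12 ± 0.10 in dKO MEFs, a called interaction of 1.14 ± 0.14. Patz1 changed by -0.61 ± 0.05 and -0.55 ± 0.05, and Hic2 by 0.27 ± 0.06 and 0.58 ± 0.06. None of the 8 was called with AICAR in either genotype of hepatocytes, against 16.5% and 17.8% of all genes in WT and dKO. With 8 genes, this count of 0 says little about the list. Of 14 measured corepressors and partners of BTB domains, 7 rose and 0 fell in WT MEFs, and 10 rose and 1 fell in dKO MEFs, or 50% and 78.6% called against 35.0% and 40.2% of all genes. Mta3, which encodes a NuRD subunit that works with BCL6, rose by 0.25 ± 0.04 and 0.38 ± 0.04, and Tbl1xr1, of the NCoR complex, rose by 0.22 ± 0.04 in WT. In hepatocytes 2 corepressors rose and none fell in WT, and 3 rose and 2 fell in dKO, or 14.3% and 35.7% called against 16.5% and 17.8% of all genes. Tbl1xr1 rose by 0.47 ± 0.06 and 0.48 ± 0.06, and Hdac4 by 0.32 ± 0.08 and 0.42 ± 0.08.

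Among known targets of members, Cdkn1a and Cdkn2b, cell cycle inhibitors that Miz-1 regulates with Myc, rose with AICAR in WT MEFs (0.21 ± 0.06 and 0.35 ± 0.04). Both fell in dKO MEFs (-0.66 ± 0.06 and -0.47 ± 0.04), and both interactions were called (0.88 ± 0.08 and 0.81 ± 0.06), while Zbtb17 itself rose in both genotypes. In hepatocytes Cdkn1a rose in WT and dKO (0.36 ± 0.03 and 0.38 ± 0.03), and Cdkn2b was called lower in WT (-0.23 ± 0.07) and not in dKO (-0.10 ± 0.07), with no interaction called for either. Cdkn2a, a target of Zbtb7a, was not called with AICAR in either genotype of MEFs. Of 53 genes with a BTB domain and no zinc fingers (Klhl, Kbtbd and Btbd symbols), 13 rose and 10 fell in WT MEFs and 15 rose and 13 fell in dKO MEFs (43.4% and 52.8% called, against 35.0% and 40.2% of all genes). Of 305 zinc finger genes with a Zfp symbol, which include Zfp131 of the first list, 85 rose and 92 fell in WT MEFs (58.0% called) and 88 rose and 103 fell in dKO MEFs (62.6%). In hepatocytes 5 of these rose and 63 fell in WT, and 10 rose and 86 fell in dKO (22.3% and 31.5% called). Of all genes 16.5% and 17.8% were called there, 8.51% and 10.5% higher and 7.99% and 7.31% lower. The shares of Zbtb genes called were 46.2% and 61.5% in MEFs and 28.2% and 38.5% in hepatocytes, and a difference between the lists was not tested.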

How the data were processed

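The authors deposited log2 intensities per probe set, made with RMA and Partek per the submitters' processing notes, whose versions are not given in the sources used here. Whether the cell types were normalized together is not stated, so each was tested alone. Of 45101 probe sets, 64 controls were left out, and of the other 45037 the annotation gives 1 symbol to 34945, several to 932 and none to 9160. Symbols were updated by Entrez identifier for 34741. Per the labels, an outlying array in each cell type (1 of MEFs, 1 of hepatocytes) was dropped by the authors.

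Tests used limma (version 3.58.1, R 4.3.3, eBayes with an intensity trend) on the deposited log2 values, with Benjamini-Hochberg adjustment over 18193 genes and no filter. MEF arrays were samples in a model of 6 group means (17 residual degrees of freedom). Hepatocyte technical replicates were averaged to 12 preparation means, with the preparation within genotype as a block (4 degrees of freedom). The genotype comparison in hepatocytes used the 4 vehicle means (2 degrees of freedom). The fit was tested on simulated data. These were drawn without variation between preparations, so they do not check the hepatocyte calls against such variation. Python 3.11.15 with pandas 2.3.3 and matplotlib 3.10.9 made tables and figures.

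The members, the companion and marker lists and the alternatives were chosen with earlier results of these data known. Named genes are the 8 largest called rises and falls for AICAR and its interaction, the 5 largest for the other comparisons, and members whose probe sets were called in opposite directions. Per-array values are given for the 6 largest AICAR changes in WT MEFs, the 4 largest interactions and 6 hepatocyte members. Genes with such values were picked by the size of their changes, so a lack of overlap between groups adds no support to their calls. Technical replicate numbers did not pair MEF arrays (median correlation of deviations 0.016 over 55 pairs), so no block was used there. Markers of lymphocytes and cholangiocytes were measured too. With AICAR none of the 5 lymphocyte markers was called in hepatocytes, and 1 of 4 cholangiocyte markers was lower in each genotype.

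Alternatives were quantile normalization, median centring, a filter that kept genes with a level no lower than the median, averaging the probe sets of a gene, testing every probe set, no variance trend, the interquartile range of each array as a covariate, replicate blocks, hepatocyte arrays taken as samples, single preparations, and leave-one-out fits over arrays or preparations. Promoter windows came from RefSeq on GRCm38.p6.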

Additional observations from a re-analysis of the deposited data

Results flagged for a closer look

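In MEFs the AICAR interaction was called for 10 members, which is 25.6% of the members against 12.1% of all genes. The calls of Zbtb12, Zbtb21, Zbtb24 and Zbtb34 were kept under all alternatives run, and the other 6 were lost under 1 or more. The difference (WT minus dKO) was positive for Zbtb24 (0.61), Zbtb12 (0.49), Zbtb3 (0.47), Zbtb42 (0.30), Zbtb48 (0.26) and Zbtb6 (0.16). It was negative for Zbtb21 (-0.48), Zbtb34 (-0.42), Zbtb1 (-0.33) and Zbtb2 (-0.21). The 991 interaction in MEFs was called for Zbtb39 (0.36) and Zbtb8a (0.27), or 5.13% of the members against 5.28% of all genes. Neither call was kept under all alternatives run.

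With AICAR, every MEF array moved one way from the vehicle mean and every hepatocyte preparation the other for 3 members in WT. In dKO this held for Zbtb6 and Zbtb8a and not for Zbtb1. These differences between the cell types were not tested. In WT, Zbtb1 changed by 0.28 in MEFs and -0.32 in hepatocytes, Zbtb6 by 0.64 and -0.46, and Zbtb8a by 0.67 and -0.40. In dKO, Zbtb6 changed by 0.48 and -0.46, and Zbtb8a by 0.47 and -0.43.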

How the results depend on the processing

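Of 2208 values of 87 named gene results under alternatives, 2032 kept their direction and their call, 175 kept the direction without the call, and 1 reversed (the AICAR interaction of Zbtb2 in MEFs, 0.015 with the mean of all probe sets). For 47 results the call was kept under all alternatives run. Counts below are of called members in the order given. Counting every probe set (86 instead of 39 features) gave 31 and 40 for AICAR in WT and dKO MEFs, 2 for 991 in dKO MEFs, 39 for the genotypes of MEFs, 28 and 28 for AICAR in WT and dKO hepatocytes, 2 for its interaction and 10 for 991 in WT hepatocytes. Median centring gave 6 for the AICAR interaction and 0 for 991 in dKO MEFs. For 991 in WT MEFs, quantile normalization gave 5, the mean of all probe sets 6 and the array width as a covariate 1. The mean of all probe sets gave 0 for 991 in dKO MEFs. The width covariate gave 0 for the 991 interaction in MEFs and 1 for 991 in WT hepatocytes. The cause was not tested.

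With the technical replicate number as a replicate block, the 991 interaction in MEFs gave 1 call, and the block moved no other count in MEFs by over 1.5 times. Without the replicate block of preparations, hepatocytes gave 5 and 6 for AICAR in WT and dKO and 1 for 991 in WT. Preparation numbers used as a block across the genotypes of hepatocytes gave 0, and crossed numbers, chosen after seeing a correlation of -0.774 between same-numbered vehicle deviations, gave 3 calls.

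Every hepatocyte array as a sample, which treats technical replicates as independent, gave 23 and 23 for AICAR in WT and dKO, 6 for its interaction, 16 and 3 for 991, 8 for its interaction and 5 for the genotypes. Preparation 1 alone gave 24 for AICAR in WT, 8 for its interaction, 11 and 3 for 991 in WT and dKO, 4 for its interaction and 13 for the genotypes. Preparation 2 alone gave 19, 3, 12, 2, 6 and 9 for the same comparisons. Fits of a single preparation also take its technical replicates as samples. Shares of all genes called are not given for these settings, so the counts say nothing particular about the members.

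Leaving out 1 array gave 17 to 18 and 22 to 24 for AICAR in WT and dKO MEFs, 6 to 10 for its interaction, 3 to 13 for 991 in WT, 0 to 1 in dKO, 0 to 4 for its interaction and 16 to 20 for the genotypes. The interaction count of 6 came without WT AICAR, WT vehicle or dKO vehicle replicate 3. Leaving out 1 preparation gave 5 to 11 and 4 to 14 for AICAR in WT and dKO hepatocytes, 0 to 5 for 991 in WT and 0 for the other hepatocyte comparisons. For the genotypes this was chosen after seeing the data and leaves 1 residual degree of freedom, with the lone preparation assumed to vary like the other genotype's. The 2 preparations per genotype limit the precision in hepatocytes. Detection calls were not used here, so whether each member was above background was not tested.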
